A study of Mus musculus with 14 samples.

Results

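Expression of 10 genes of the basement membrane was followed in liver sinusoidal endothelial cells (LSECs) through acute liver injury: the laminin chains Lama2, Lama4, Lama5, Lamb1, Lamb2 and Lamc1, the nidogens Nid1 and Nid2, and the heparan sulfate proteoglycans Hspg2 (perlecan) and Agrn (agrin). They are the 10 rows of the count table, out of 54524, whose Ensembl identifiers carry these symbols in GENCODE vM21, and all 10 were among the 26626 genes that passed the filter on low counts. LSECs came from male Balb/c mice, 10 to 12 weeks old by the labels. Mice were injected into the abdomen a single time with CCl4, a solvent that injures hepatocytes, at 0.5 µL per g in mineral oil. Cells were collected after 1 day (2 mice), 3 days (4 mice) or 7 days (4 mice), and the 4 healthy control mice received no injection, so that the oil and the injection are not separated from CCl4. The cells were sorted by flow cytometry as CD32 positive, F4/80 negative, low in UV autofluorescence and alive, and by the study's methods, though not by the labels, also CD45 negative, and each sample was a different mouse. The study left out 2 further day 1 samples for low RNA quality. Gene positions are those of whole genes, introns included, in GENCODE vM21 on GRCm38.

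A laminin is a trimer of an alpha, a beta and a gamma chain, and laminin trimers join into the sheet on which a basement membrane is built. Nidogens bind the laminin gamma chain and collagen IV and link these networks, perlecan adds heparan sulfate chains that hold growth factors, and agrin ties laminins to receptors such as dystroglycan. Healthy liver sinusoids are known for lacking a continuous basement membrane, and matrix that builds up along them is a feature of capillarization in fibrosis.

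Upstream sequence is shown for the genes on which the results turn and for which RefSeq promoter windows were at hand: Lama2 and Lamb1, which rose together, Lama5, an alternative alpha chain, and Lamb2, the prevailing beta chain. Each line holds the 250 bases before a RefSeq start site in GRCm38.p6, read 5′ to 3′ on the strand of the gene, at chr10:27616943-27617192 (minus strand) for Lama2, chr12:31265043-31265292 (plus) for Lamb1, chr2:180225860-180226109 (minus) for Lama5 and chr9:108479612-108479861 (plus) for Lamb2. RefSeq and GENCODE starts differ. The Lama2 window lies wholly inside the GENCODE vM21 gene, whose 5′ end is at 27619758, so the sequence before that end is not shown. The Lamb1 and Lamb2 windows run past the GENCODE starts at 31265234 and 108479736 into the genes. Capitals mark GC boxes (GGGCGG or CCGCCC) and CCAAT boxes (CCAAT or ATTGG).
Lama2: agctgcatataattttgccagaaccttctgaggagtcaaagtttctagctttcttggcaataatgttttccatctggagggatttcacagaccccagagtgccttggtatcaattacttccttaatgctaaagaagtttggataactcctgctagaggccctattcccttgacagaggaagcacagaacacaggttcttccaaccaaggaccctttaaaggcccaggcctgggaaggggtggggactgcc
Lamb1: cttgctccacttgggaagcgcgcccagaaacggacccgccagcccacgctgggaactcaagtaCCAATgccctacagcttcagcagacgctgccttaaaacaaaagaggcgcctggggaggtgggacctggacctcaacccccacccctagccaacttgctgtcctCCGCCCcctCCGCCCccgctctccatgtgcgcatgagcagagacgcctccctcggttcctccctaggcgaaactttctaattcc
Lama5: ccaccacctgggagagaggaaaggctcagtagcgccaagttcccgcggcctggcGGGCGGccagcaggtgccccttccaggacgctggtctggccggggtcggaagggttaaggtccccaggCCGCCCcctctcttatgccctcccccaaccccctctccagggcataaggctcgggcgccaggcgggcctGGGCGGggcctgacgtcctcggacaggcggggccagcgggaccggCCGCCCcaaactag
Lamb2: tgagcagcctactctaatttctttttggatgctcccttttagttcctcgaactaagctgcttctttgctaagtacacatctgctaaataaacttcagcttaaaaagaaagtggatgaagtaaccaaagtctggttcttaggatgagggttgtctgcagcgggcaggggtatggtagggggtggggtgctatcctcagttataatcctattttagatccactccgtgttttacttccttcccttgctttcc
The Lama2 window held 0 CpG dinucleotides, that of Lamb2 3, that of Lamb1 14 and that of Lama5 19, against a median of 6 over 32851 mouse windows of the same length. The GC box was found 4 times before Lama5 and 2 times before Lamb1 and not before Lama2 or Lamb2, while 32.7% of all windows held it. A CCAAT box stood in the Lamb1 window, as in 33.8% of all windows. All letters were searched on both strands, also before Nid1, Hspg2 and Agrn, the other members with windows. The AP-1 letters TGANTCA were in no window of these 7 members, nor were the letters TATAAA of a TATA box or the E-box letters CACGTG, which 6.75%, 12.4% and 6.02% of all windows held. Lama2 and Lamb1, which moved together in these samples, thus shared none of the searched letters in these windows, and no match says only that the letters are absent there.

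Counts per sample totalled 46401496 to 103912264. All 12 LSEC markers examined, among them Stab2, Clec4g and Lyve1, were detected in every group, and their summed level had a median of 19946 CPM (counts per 1000000 counts of the TMM-scaled library) in healthy samples, 14729 at day 1, 12856 at day 3 and 13077 at day 7. Not every marker followed the sum. Mean Lyve1 was 387 CPM in healthy samples and 3209 CPM at day 1, and mean Clec1b 373 and 1177 CPM. The other LSEC markers had lower means at day 1 than in healthy samples. Summed markers of monocytes and neutrophils lay between 44.9 and 244 CPM in healthy samples, at 7158 and 3123 CPM in day 1 replicates 1 and 2, at 4981 and 2764 CPM in day 3 replicates 1 and 2, and between 129 and 467 CPM in the other day 3 and day 7 samples. These cells carry CD45, for which the sort was gated. Summed hepatocyte markers were at 9336 CPM in healthy replicate 4 and between 215 and 430 CPM in the other healthy samples, at 37.2 and 153 CPM at day 1 and between 891 and 7050 CPM later, and the mitochondrial share of counts was 3.04% to 3.65% in healthy samples and 5.28% to 9.87% at day 7. Day 3 was the least uniform group: replicate 4 had at least 1 count on 22986 genes, against 27283 to 34768 in the other samples of the series. In that sample genes with at least 5000 exon bases stood 0.75 (log2) higher relative to genes under 2000 bases than in the healthy mean, while the difference was -0.76 and -0.65 in day 3 replicates 1 and 2 and between -0.15 and 0.23 in all others. This bears on every member, since all 10 have merged exons longer than 5000 bases, and replicate 4 was the highest of the 4 day 3 samples for 10 of 10 members. At day 7, replicate 1 was the lowest of 4 samples for 9 of 10. The part of these differences between libraries in the results was not tested.

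**Figure D1:**
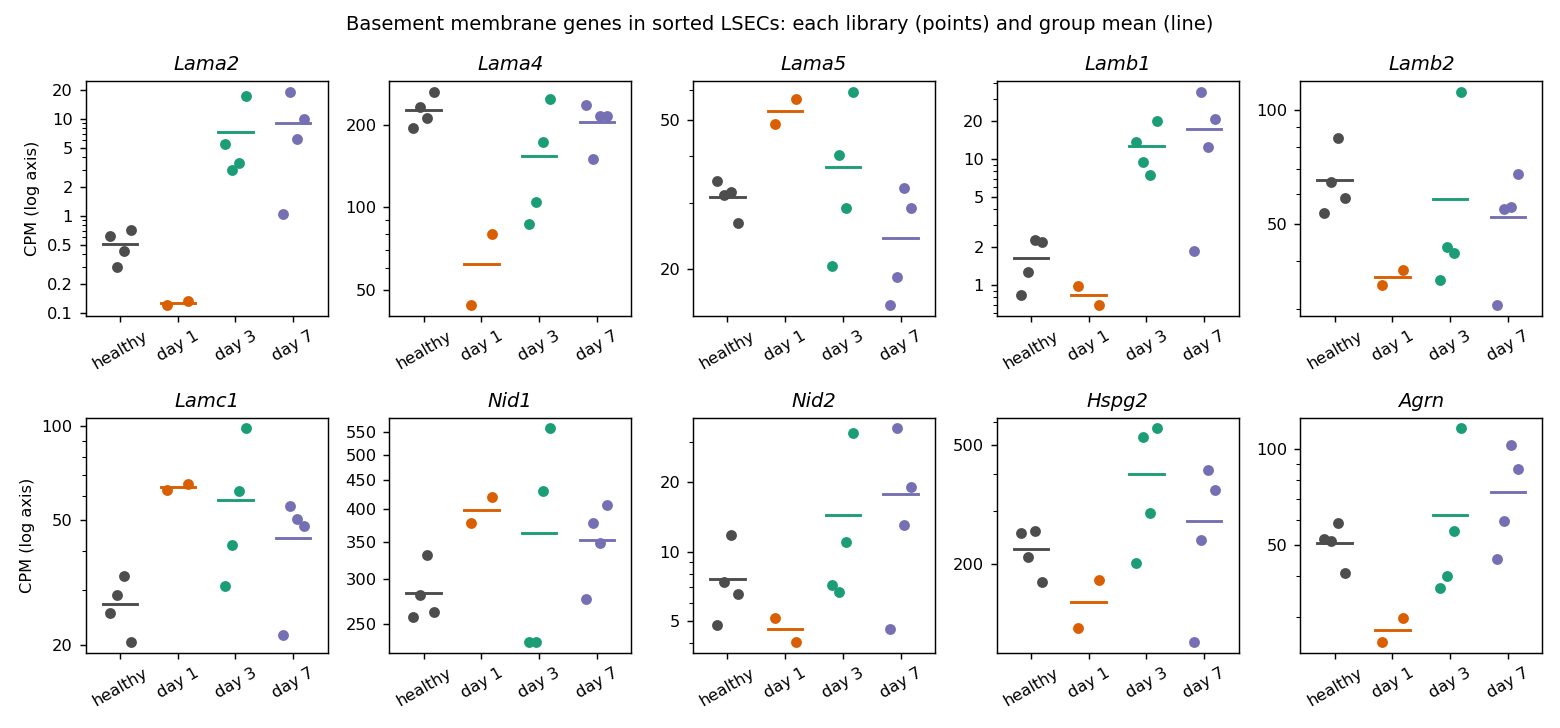
Level of the 10 genes in each of 14 LSEC samples, in CPM scaled by TMM on log axes that differ between panels, with points for samples and a line for each group mean. Lama2 and Lamb1 separated day 3 from healthy samples, Lama4 was at 43.9 and 79.9 CPM at day 1 against 195 or more in healthy samples, and day 3 replicate 4 was the highest of its group in every panel.

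In healthy LSECs the 10 genes covered a wide range of levels when CPM was divided by exon length in kilobases (kb). Nid1 was highest at 40.7 ± 4.90 CPM per kb (mean ± SD, n = 4). Lama4 followed at 18.7 ± 2.45, Hspg2 at 15.7 ± 2.76 and Lamb2 at 10.7 ± 2.22, each overlapping its neighbour in this order. This depends on the length used, here that of merged exons. By the longest transcript, Lama4 (32.2 to 43.6 CPM per kb) lay above Hspg2 (12.3 to 18.2) and overlapped Nid1 (42.2 to 54.4). Agrn stood apart from both neighbours at 5.49 ± 0.789, Lamc1 (3.26 ± 0.660) and Lama5 (2.74 ± 0.291) overlapped, and Nid2 came next at 1.47 ± 0.575. Lamb1 at 0.167 ± 0.0719 and Lama2 at 0.0315 ± 0.0114 CPM per kb closed the order without overlap. A healthy LSEC sample thus held laminin transcripts mainly of the chains Lama4, Lamb2 and Lamc1, together with Nid1 and perlecan.

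At day 1 after CCl4 the main alpha chain of healthy LSECs, Lama4, fell, and no other member passed the test. This was 1 call among 10 members by edgeR's quasi-likelihood test, at a Benjamini-Hochberg adjusted p under 0.05, while 4.06% of all genes tested were called in this comparison. The median log2 fold change of the members was -0.79, and that of all genes tested -0.03. Without overlap between the groups lay 7 of 10 members in CPM (Lama5, Lamc1 and Nid1 above the healthy samples, Lama2, Lama4, Lamb2 and Agrn below them), but so did 37.9% of all genes, with only 2 mice at day 1.

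Lama4 (ENSMUSG00000019846, chr10:38965515-39110188, plus strand) encodes the alpha chain typical of vascular basement membranes. Its level was 195, 231, 211 and 264 CPM in healthy replicates 1 to 4 and 43.9 and 79.9 CPM at day 1. It then read 86.8, 104.2, 173 and 248 CPM in day 3 replicates 1 to 4 and 236, 150, 216 and 215 CPM in those of day 7. Both day 1 samples were below all others of the series, and the day 3 and day 7 samples overlapped the healthy ones. Lama4 fell by 1.86 on the log2 scale at day 1 (SE 0.41), to 0.275 of the healthy level, with an adjusted p of 0.0202 by edgeR's quasi-likelihood test. The call was lost without either day 1 mouse or without healthy replicate 4, with adjusted p-values up to 0.468 when a sample was left out. At day 3 the log2 difference from healthy was -0.56 (SE 0.30, adjusted p = 0.312) and at day 7 it was -0.14 (SE 0.30, adjusted p = 0.833).

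Lama5 (ENSMUSG00000015647, chr2:180176373-180225859, minus strand) encodes the alpha chain with the broadest set of receptors in epithelia and vessels. It stood at 34.5, 31.5, 32.1 and 26.6 CPM in healthy samples and at 48.9 and 56.8 CPM at day 1. The day 3 samples held 20.5, 40.3, 29.2 and 59.5 CPM and the day 7 samples 16.0, 19.1, 32.9 and 29.1 CPM. Both day 1 values exceeded every healthy value, the day 3 samples lay on either side of the healthy range, and no day 7 sample was above it. The day 1 difference of 0.76 on the log2 scale (SE 0.36) had an adjusted p of 0.292, and neither day 3 (0.26) nor day 7 (-0.36) passed.

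The balance between these alpha chains within a sample does not depend on how libraries are scaled. As a share of all alpha chain transcripts per kb, Lama4 made up 86.3% ± 2.63 in healthy samples (SD, n = 4), 45.8% and 56.9% in the day 1 mice, 73.5% ± 6.29 at day 3 and 82.7% ± 7.15 at day 7. Lama5 made up 12.9% ± 2.54 in healthy samples and 54.0% and 42.8% in the day 1 mice. At day 3 it was at 19.6% ± 5.43 and at day 7 at 10.4% ± 2.79. In both day 1 mice the share of Lama5 was above that in all 12 other samples. The ratio of Lama5 to Lama4 at day 1 was 6.41 times the healthy one and the groups did not overlap (two-sided exact permutation test, p = 0.0667, the smallest that 2 against 4 mice allow; 0.1 after adjustment over 15 ratio tests). At day 3 the ratio was 1.78 times the healthy one (exact permutation p = 0.0571) and at day 7 it was 0.834 times (p = 0.457). The shares depend on the length used: with the longest transcript instead of merged exons, Lama5 made up 6.93% in healthy samples and 32.2% at day 1.

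**Figure D2:**
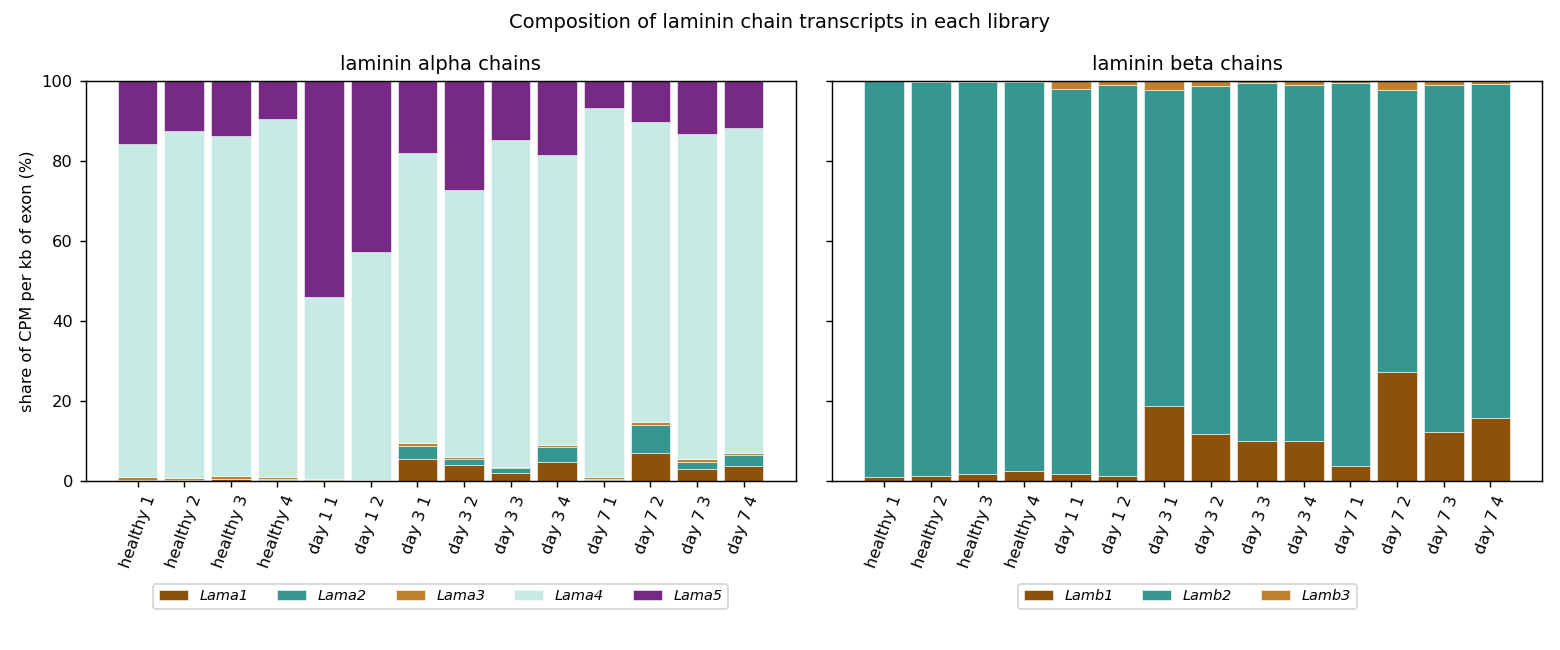
Share of each chain among the alpha chains (left) and beta chains (right) in each of 14 samples, in percent of CPM per kb of merged exons. Lama5 filled 54.0% and 42.8% of the alpha chains in the day 1 samples against 9.57% to 15.6% in healthy ones, and Lamb1 filled 9.80% to 18.7% of the beta chains at day 3 against 0.950% to 2.27%.

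Lamc1 (ENSMUSG00000026478, chr1:153218922-153332786, minus strand), the gamma chain of most laminins, stood above its healthy level in both day 1 mice. Healthy samples held 25.2, 28.8, 33.3 and 20.4 CPM, the day 1 samples 62.8 and 65.6 CPM, the day 3 samples 30.9, 41.6, 62.2 and 98.5 CPM and the day 7 samples 21.5, 55.5, 50.7 and 48.1 CPM. The day 1 values lay above all healthy ones, day 3 overlapped them through replicate 1 alone and day 7 through replicate 1 alone. Its log2 difference from healthy was 1.25 (SE 0.41, adjusted p = 0.113) at day 1, 1.11 (SE 0.35, adjusted p = 0.0732) at day 3 and 0.71 (SE 0.35, adjusted p = 0.260) at day 7, so that it passed at no time.

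Lamb2 (ENSMUSG00000052911, chr9:108479736-108490530, plus strand), the beta chain of mature vessels and of the neuromuscular junction, read 53.5, 64.8, 84.3 and 58.5 CPM in healthy samples and 34.6 and 38.0 CPM at day 1. The day 3 samples read 35.7, 43.7, 42.1 and 112 CPM and the day 7 samples 30.7, 54.7, 55.4 and 67.9 CPM. Day 1 lay below every healthy sample, as did 3 of 4 day 3 samples, with replicate 4 above all of them. None of the log2 differences from healthy (-0.85 at day 1, -0.16 at day 3, -0.32 at day 7) passed the test.

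At day 3 after CCl4 the chains that were scarcest in healthy LSECs, Lama2 and Lamb1, rose together. They were the 2 of 10 members called, against 7.19% of all genes tested. The median log2 fold change of the members was 0.60 and that of all genes 0.18. These were also the only 2 members whose day 3 samples did not overlap the healthy ones, a pattern that 14.4% of all genes showed. At day 7 Lama2 and Lamb1 were called again, 2 of 10, against 3.18% of all genes, and the medians were 0.42 for the members and 0.02 for all genes. Lama2 was then the only 1 of 10 members without overlap, against 20.8% of all genes. The comparisons at days 1, 3 and 7 share the 4 healthy mice.

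Lama2 (ENSMUSG00000019899, chr10:26980036-27619758, minus strand) encodes the alpha chain of muscle and peripheral nerve laminin, whose loss causes a congenital muscular dystrophy. Healthy samples held 0.619, 0.294, 0.437 and 0.710 CPM and the day 1 samples 0.120 and 0.132 CPM (10 and 12 counts). Day 3 samples held 5.45, 2.98, 3.48 and 17.0 CPM, and day 7 samples 1.04, 19.0, 6.17 and 9.91 CPM. Every day 3 and day 7 sample was above every healthy one, and both day 1 samples were below them. Lama2 rose by 3.81 on the log2 scale at day 3 (SE 0.79), a 14.01-fold difference, with an adjusted p of 0.0123 by edgeR's quasi-likelihood test. At day 7 the rise was 4.13 (SE 0.80), 17.5-fold, with an adjusted p of 0.0169. The day 3 call was kept without any single sample, but without day 3 replicate 4 the difference was 7.21-fold (2.85 on the log2 scale). The day 7 call was lost without healthy replicate 1, 2 or 3 or day 7 replicate 2 (adjusted p up to 0.0635), and without the last the difference was 11.1-fold (3.47 on the log2 scale). At day 1 the log2 difference was -2.02 (SE 1.01, adjusted p = 0.324). Exons of the antisense gene Gm48084 cover 631 of its exon bases, but that gene had at most 5 counts in a sample.

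Lamb1 (ENSMUSG00000002900, chr12:31265234-31329644, plus strand), the beta chain of embryonic and many early laminins, followed the same course. It read 0.838, 1.27, 2.28 and 2.22 CPM in healthy samples and 0.981 and 0.693 CPM at day 1. At day 3 it read 13.8, 9.56, 7.48 and 20.3 CPM and at day 7 1.88, 34.3, 12.5 and 20.8 CPM. All 4 day 3 samples exceeded the healthy ones, and at day 7 replicate 1 lay within the healthy range while the other 3 lay above it. The rise was 2.95 on the log2 scale at day 3 (SE 0.67), 7.73-fold, with an edgeR adjusted p of 0.0184, and 3.40 at day 7 (SE 0.68), 10.5-fold, with an adjusted p of 0.0192. The day 3 call was lost without healthy replicate 1 or 2 (adjusted p up to 0.0617), and the day 7 call without the same 4 samples as that of Lama2. Among beta chain transcripts per kb, Lamb1 made up 1.51% ± 0.579 in healthy samples, 12.5% ± 4.21 in day 3 samples and 14.6% ± 9.78 in those of day 7, without overlap with the healthy samples, and Lamb2 remained the main beta chain in every sample. The ratio of Lamb2 to Lamb1 was 9.52-fold lower at day 3 and 9.48-fold lower at day 7 than in healthy samples, and the ratio of Lama2 to Lama4 was 17.5-fold higher at day 3 and 12.9-fold higher at day 7. None of the 4 differences showed overlap, and each had the smallest exact permutation p that 4 against 4 mice allow, 0.0286, or 0.0857 after adjustment over 15 tests.

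**Figure D3:**
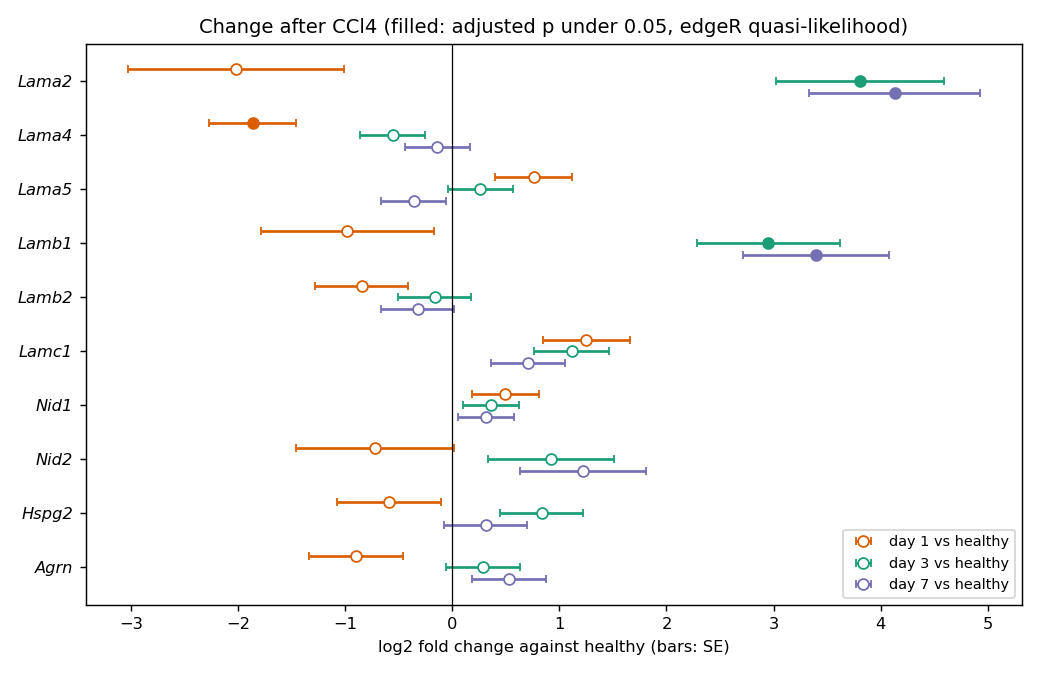
Log2 fold change against healthy LSECs for the 10 genes at days 1, 3 and 7, with bars of 1 SE and filled points where the adjusted p was under 0.05 (edgeR quasi-likelihood). Lama4 at day 1 (-1.86) and Lama2 and Lamb1 at days 3 and 7 (2.95 to 4.13) are filled, and the other 8 genes at days 3 and 7 lie between -0.56 and 1.22.

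The levels of Lama2 and Lamb1 moved with markers of hepatic stellate cells and fibroblasts, which a sort for LSECs is meant to leave out. Of 15 such markers, among them Lrat, Dcn, Pdgfrb and Col1a1, none was called at day 1, 11 were called higher at day 3 and 12 at day 7. Their summed level was 162 to 296 CPM in healthy samples, 115 and 139 CPM at day 1, 865 to 2669 CPM at day 3 and 473 to 7638 CPM at day 7, and none of the 15 was under the detection limit of 3 counts throughout a group. Day 7 replicate 2, the sample with the most of both chains, had the 7638 CPM, and day 7 replicate 1, the sample with the least of both among days 3 and 7, had the 473 CPM. Per 1000 CPM of these markers, Lamb1 was at 3.73 to 10.8 CPM in healthy samples, 7.03 and 6.04 in the day 1 samples, 5.72 to 8.65 in those of day 3 and 3.98 to 7.68 in those of day 7, ranges that overlap in all 4 groups. Lama2 per 1000 marker CPM was at 1.81 to 2.75 in healthy samples, 0.858 and 1.15 in the day 1 samples, 1.78 to 6.37 in those of day 3 and 2.20 to 3.79 in those of day 7. The single markers do not weigh alike in the sum of each group, which these ratios do not account for. Mean Dcn was 141 CPM in healthy samples and 835 CPM at day 7, and mean Col3a1 15.2 and 786 CPM. In sorted bulk samples the number of cells of a type and the RNA per cell cannot be told apart, and the part of stellate cells or fibroblasts in the rise of Lama2 and Lamb1 was not tested.

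**Figure D4:**
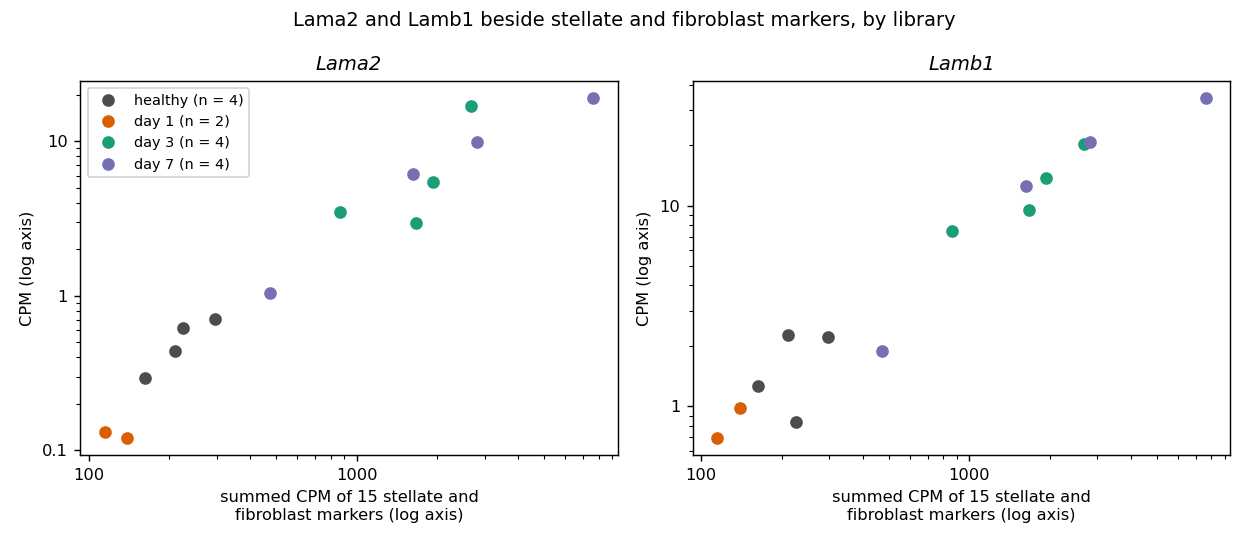
CPM of Lama2 (left) and Lamb1 (right) against the summed CPM of 15 stellate cell and fibroblast markers in each of 14 samples, on log axes and coloured by group. The samples lie along a rising band, from the day 1 mice (115 and 139 marker CPM) to day 7 replicate 2 (7638 marker CPM, 19.0 CPM of Lama2 and 34.3 CPM of Lamb1).

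The nidogens differed from each other. Nid1 (ENSMUSG00000005397, chr13:13437551-13512269, plus strand), the widely expressed nidogen, held 257, 281, 331 and 262 CPM in healthy samples, 377 and 420 CPM at day 1, 232, 232, 431 and 557 CPM at day 3 and 277, 378, 348 and 407 CPM at day 7. It was above the healthy samples in both day 1 mice, and split at day 3 into 2 samples below and 2 above the whole healthy range. Its log2 differences from healthy were 0.50, 0.36 and 0.32 at days 1, 3 and 7, and none passed. Nid1 had the highest mean level per kb of all members in every group.

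Nid2 (ENSMUSG00000021806, chr14:19751265-19811787, plus strand), more restricted to endothelium and a few other tissues, was lower throughout. It held 4.79, 7.34, 11.8 and 6.51 CPM in healthy samples, 5.16 and 4.05 CPM at day 1, 7.18, 6.65, 10.97 and 32.7 CPM at day 3 and 4.59, 34.2, 13.1 and 19.0 CPM at day 7. The highest values were those of day 3 replicate 4 and day 7 replicate 2, which also had the most Lama2. The log2 differences of -0.72, 0.92 and 1.22 did not pass. The counts of Nid2 are uncertain, because 437 of its exon bases (8.45%) are also exon of Rtraf on the other strand, a gene with 5000 to 20537 counts per sample, and use of the strand in counting was not given in the sources used here. The ratio of Nid2 to Nid1 was 2.23-fold lower at day 1 than in healthy samples without overlap (exact permutation p = 0.0667), 1.33-fold the healthy one at day 3 and 1.57-fold at day 7, both with p = 0.314.

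Hspg2 (ENSMUSG00000028763, chr4:137468769-137570630, plus strand), perlecan, held 254, 212, 258 and 174 CPM in healthy samples and 122 and 176 CPM at day 1. Day 3 samples held 201, 533, 296 and 570 CPM and day 7 samples 109, 241, 412 and 354 CPM. All later groups overlapped the healthy range, in spite of 3 of 4 day 3 samples above it. Log2 differences were -0.59, 0.83 and 0.31 at days 1, 3 and 7, the second with SE 0.39 and an adjusted p of 0.228.

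Agrn (ENSMUSG00000041936, chr4:156165290-156197488, minus strand), agrin, held 52.3, 51.8, 58.7 and 41.1 CPM in healthy samples and 25.0 and 29.6 CPM at day 1. It read 36.9, 40.3, 55.4 and 116 CPM at day 3 and 45.3, 59.5, 103 and 86.3 CPM at day 7. Both day 1 mice were below all 12 other samples, with a log2 difference from healthy of -0.90 (SE 0.44, adjusted p = 0.305), and the later differences of 0.28 and 0.53 did not pass either. Relative to perlecan, agrin was lower at day 1 (1.23-fold, exact permutation p = 0.0667) and day 3 (1.505-fold, p = 0.0286) without overlap, and 1.23-fold higher at day 7 with overlap (p = 0.0571). After adjustment over the 15 ratio tests the lowest of these was 0.0857. The sizes at days 3 and 7 lean on 1 sample each. The log2 ratio per kb was -1.66 to -1.41 in healthy samples. At day 3 it was -3.10 in replicate 2 and -1.82, -1.79 and -1.68 in replicates 1, 3 and 4. At day 7 it was -0.65 in replicate 1 and -1.41 to -1.38 in replicates 2, 3 and 4.

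Between day 1 and day 3 of the injury 2 of 10 members were called, Lama2 and Lamb1, against 2.54% of all genes. Lama2 was 5.83 higher on the log2 scale at day 3 than at day 1 (SE 1.20, adjusted p = 0.0231) and Lamb1 3.93 higher (SE 0.94, adjusted p = 0.0442), by edgeR's quasi-likelihood test. The day 1 level of Lama2 rested on 10 and 12 counts, so that the size of its difference is uncertain. Leaving out a sample took the Lamb1 call away in every case, with adjusted p-values of 0.0534 to 0.374. The Lama2 call was lost without day 1 replicate 1 or 2 (adjusted p = 0.309 and 0.258), in the model of the 2 groups alone (0.0664) and with the replicate block (0.0602), and its log2 difference was 4.89 without day 3 replicate 4. The groups did not overlap for 6 of 10 members, all higher at day 3, namely Lama2, Lama4, Lamb1, Nid2, Hspg2 and Agrn, as was true of 21.8% of all genes in either direction. Lama4 was 1.31 higher (SE 0.40, adjusted p = 0.111), Hspg2 1.42 (SE 0.51, adjusted p = 0.181) and Agrn 1.19 (SE 0.44, adjusted p = 0.203) on the log2 scale. The median over the members was 1.25 and that over all genes 0.19. This comparison shares the day 1 and day 3 samples with those against healthy mice and is not independent of them.

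From day 3 to day 7 no member was called, 0 of 10 against 1.77% of all genes. All 10 overlapped between the groups, while 7.91% of all genes did not. No member had an unadjusted p under 0.05 in edgeR. DESeq2 called 0 of 10, against 6.7% of all genes, and limma-voom with sample quality weights called 3, against 22.5%. Log2 differences ran from -0.62 for Lama5 (SE 0.30) to 0.44 for Lamb1 (SE 0.62), around a median of 0.10 against -0.10 for all genes.

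Further laminin chains outside the 10 members were scarcer than the main members. Lama3, an alpha chain of epithelia, fell by 3.19 on the log2 scale at day 1 (SE 0.60, adjusted p = 0.00878), from 1.31 to 0.142 CPM. Lama1, the alpha chain of early embryonic basement membranes, rose by 4.31 at day 3 (SE 0.83, adjusted p = 0.00890) and by 4.23 at day 7 (SE 0.83, adjusted p = 0.0179), from 0.0998 to 0.530 CPM in healthy samples to 3.09 to 12.9 CPM at day 3 and 0.416 to 10.9 CPM at day 7. As with Lamb1, its lowest day 7 sample lay within the healthy range. The Lama3 call was lost without either day 1 mouse and the Lama1 call at day 7 without healthy replicate 1 or 2 or day 7 replicate 2, and without day 3 replicate 4 the rise of Lama1 at day 3 was 3.63. Lamb3 and Lamc3 had mean levels under 1 CPM in every group and were not called.

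Of 25 other basement membrane genes tested, 2 were called higher and 2 lower at day 1, 3 higher and 4 lower at day 3, and 4 higher and 1 lower at day 7, where the shares of all genes called were 4.06%, 7.19% and 3.18%. The main collagen IV chains Col4a1 and Col4a2 were higher at day 1 by 1.57 (SE 0.38, adjusted p = 0.0325) and 1.74 (SE 0.34, adjusted p = 0.0102) on the log2 scale, at the time when Lamc1 stood above every healthy sample. Col4a2 was still 1.42 higher at day 3 (adjusted p = 0.0120), while Col4a1 (1.10, adjusted p = 0.0563) did not pass. Col4a4 fell by 2.79 at day 1 and by 1.56 at day 3, and Col4a3 fell by 2.83 at day 3, whereas Col4a5 and Col4a6 were not called. The Col4a1 call at day 1 was lost without any 1 of the 6 samples. Frem1, an extracellular matrix protein of embryonic epithelia, rose by 3.46 at day 3 and 4.92 at day 7, and Col15a1, a collagen of the outer basement membrane zone, by 6.19 and Smoc2 by 1.85 at day 7. Both Frem1 and Col15a1 started low, with at most 25 and 18 counts in any healthy sample. At day 7 Frem1 held 0.551 to 9.83 CPM and Col15a1 1.14 to 25.8 CPM. With each of the 8 samples left out in turn, the day 7 call of Smoc2 stood 1 time, that of Col15a1 4 times and that of Frem1 8 times, and at day 3 that of Col4a3 stood 8 times, that of Frem1 5 times and that of Col4a4 4 times. Without day 7 replicate 2, Col15a1 differed by 4.92, Frem1 by 4.23 and Smoc2 by 1.24. The day 1 calls of Col4a2 and Col4a4 were lost without either day 1 mouse.

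Of 19 receptors for these ligands tested, 4 were called higher and 1 lower at day 1, 4 higher at day 3 and 2 higher at day 7, against 4.06%, 7.19% and 3.18% of all genes. Itga3, an integrin subunit that binds laminins, rose from 1.39 to 2.77 CPM in healthy samples to 55.6 and 55.9 CPM at day 1 (log2 difference 4.80, SE 0.55, adjusted p = 0.000382), and was still 1.84 higher at day 3 (SE 0.46, adjusted p = 0.0285). Bcam, the Lutheran receptor known for binding the chain encoded by Lama5, was singled out after its values were seen: it rose from 26.3 to 41.7 CPM in healthy samples to 195 and 302 CPM at day 1 (log2 difference 2.84, SE 0.29, adjusted p = 0.000206). By day 3 Bcam held 36.9 to 54.5 CPM. The day 1 calls of both receptors stood without any single sample. The day 1 mice had 7158 and 3123 CPM of monocyte and neutrophil markers, of cells that a CD45 gate would remove. Day 3 replicates 1 and 2 had 4981 and 2764 CPM of these markers. The part of such cells in these rises was not tested. Rpsa, the ribosomal protein also called the laminin receptor, rose by 1.19 at day 1 and 1.42 at day 3, and Gpc6, a glypican, rose by 2.33 at day 3 and 2.81 at day 7, when Lrp4, a receptor for agrin, rose by 2.04. Leaving out each of 8 samples, the day 3 call of Itga3 stood 3 times, that of Rpsa 8 times and that of Gpc6 7 times, and at day 7 that of Gpc6 stood 7 times and that of Lrp4 3 times, while the day 1 call of Rpsa stood in 2 of 6 fits. Dag1, the dystroglycan that binds Lama2 laminins and agrin, had group means between 82.8 and 108 CPM and was not called at any time. Its samples ran from 94.6 to 124 CPM in healthy mice, 51.1 to 176 CPM at day 3 and 68.3 to 133 CPM at day 7.

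The sugar chains and the enzymes that act on these proteins gave further changes. None of the 13 tested genes for the glycans of alpha-dystroglycan was called by edgeR against healthy at days 1, 3 or 7, beside 4.06%, 7.19% and 3.18% of all genes. A list of 13 genes is too short to set no call apart from these shares. At an unadjusted p under 0.05 were 2, 3 and 4 of the 13, a threshold for which the share of all genes is not given here. Of 22 heparan sulfate synthesis genes tested, 3 were called higher at day 1, 4 higher and 1 lower at day 3, and 2 higher at day 7, again beside 4.06%, 7.19% and 3.18% of all genes. Xylt1, which starts the sugar chain on core proteins such as perlecan, rose by 3.36, 3.25 and 2.48 on the log2 scale at days 1, 3 and 7, Hs6st2, a sulfotransferase with at most 6 counts in any healthy sample, by 5.34 and 4.95 at days 3 and 7, and Hs3st1 by 2.57 and 1.78 at days 1 and 3. Of 26 genes for cleavage and its inhibitors, 4 were called higher and 1 lower at day 1, 4 higher at day 3 and 5 higher at day 7, beside the same shares of all genes. Timp1, an inhibitor of metalloproteinases, rose by 5.01, 4.24 and 4.60, and Sulf2, which trims sulfate from heparan sulfate, by 2.08 and 2.11 at days 3 and 7. Plau, the urokinase, rose by 1.69 at day 3, and Mmp2, a collagen IV degrading enzyme, by 3.79 and Ctss by 2.29 at day 7. With each of 8 samples left out the day 7 call of Ctss stood 1 time, that of Mmp2 6 times and that of Hs6st2 4 times, and the day 3 call of Hs3st1 stood 3 times. Its day 1 call was lost without day 1 replicate 1, and the calls of Xylt1, Timp1, Sulf2 and Plau given here stood without any single sample. The log2 rise of Hs6st2 was 4.38 at day 3 without day 3 replicate 4 and 3.99 at day 7 without day 7 replicate 2, and that of Timp1 at day 7 was 3.79 without the latter. As for Lama2 and Lamb1, the summed stellate cell and fibroblast markers were 865 CPM or higher in every day 3 sample, and their part in the changes of these lists was not tested.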

How the data were processed

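RNA was sequenced from 14 samples of sorted mouse LSECs with a SMART-seq kit. Per the methods and labels, the authors mapped reads with STAR to GRCm38.p6, ran StringTie and deposited counts as whole numbers for each Ensembl gene, not normalized. The annotation release and the use of the strand are not given in the sources used here. No sample column was left unused (0). GENCODE vM21 gave symbols, positions and exon lengths.

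Genes were filtered with filterByExpr by group (minimum count 10, minimum total 15), counts were scaled by TMM, and all comparisons were made in a single edgeR 4.0.16 quasi-likelihood model (R 4.3.3) with 1 mean per group, fitted to the 14 samples together. P-values of 26626 genes were adjusted by Benjamini-Hochberg, with a threshold of 0.05. SE was taken as the size of a log2 difference over the root of its F statistic. The model borrows the spread across groups, since day 1 has 2 mice. Levels are CPM on TMM-scaled library sizes, per kb of merged exons where genes are compared. Within-sample log2 ratios of counts per kb, with 2 counts added, were compared by two-sided exact permutation tests. A gene under 3 counts counted as undetected, a limit for counting error alone, as PCR copies were not marked.

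Alternatives were other tools (limma-voom with sample quality weights from limma 3.58.1, and DESeq2 1.42.0), scaling by RLE factors or by library size alone, 2 other filters, a model of the 2 groups compared, a replicate block and leaving out each sample. The edgeR, DESeq2 and limma-voom steps were tested on simulated data. Members, gene lists and markers were chosen with earlier results of these data known. Named were all members, other laminin chains and the collagen IV chains (with an exception not reported here), and from each further list the 3 called genes with the largest change at day 3 and at day 7. Promoter windows come from RefSeq on GRCm38.p6, for 7 of 10 members; those of Lama4, Lamc1 and Nid2 were not used here.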

Additional observations from a re-analysis of the deposited data

Results flagged for a closer look

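In 45 groups of 4 samples (member levels and within-sample ratios), the gap of an extreme sample to its nearest neighbour passed Dixon's limit 3 times, and chance flags about 1 in 20 groups. Lamc1 in day 7 replicate 1, at 21.5 CPM, was far below the other 3 day 7 samples. The log2 ratio of Agrn to Hspg2 per kb was lowest in day 3 replicate 2, at -3.10, and highest in day 7 replicate 1, at -0.65, each far from the rest of its group.

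The effects of CCl4 at day 3 and day 1 against the same healthy mice differed for a pair of members, by the test of day 3 against day 1 in edgeR's quasi-likelihood model. The difference was 5.83 on the log2 scale for Lama2 (adjusted p = 0.0231) and 3.93 for Lamb1 (adjusted p = 0.0442), and all 4 day 3 samples were higher than both day 1 samples for each. Lama2 had only 10 and 12 counts in the day 1 samples. Without either day 1 mouse the Lama2 call was lost, the Lamb1 call was lost without any 1 of the 6 samples, and with the replicate block 0 members were called.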

How the results depend on the processing

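Calls of members moved most with limma-voom, which called 5 members at day 1, 4 at day 3, 4 at day 7 and 3 from day 3 to day 7, where edgeR called 1, 2, 2 and 0. Of all genes, limma-voom called 16.2%, 27.3%, 26.5% and 22.5% in these comparisons, and edgeR 4.06%, 7.19%, 3.18% and 1.77%. From day 1 to day 3, DESeq2 called 4 members and edgeR 2, beside 9.04% and 2.54% of all genes. With only the groups compared in the model, 5 members were called at day 1 and 1 from day 1 to day 3. The shares of all genes were then 10.2% and 0.762%. No pairing by replicate number was seen. Deviations from group means correlated between -0.23 and 0.10 over 18 pairs of same-numbered samples, and between -0.26 and 0.24 over 54 other pairs. The pairs are not independent, since the deviations of the 2 day 1 samples mirror each other, so pairing is not excluded. With a replicate block, 0 members were called at day 1, 2 at day 3, 1 at day 7 and 0 from day 1 to day 3. That model called 2.23%, 5.2%, 1.63% and 1.17% of all genes in the same comparisons. Leaving out each sample gave 0 to 1 called members at day 1, 1 to 3 at day 3, 0 to 2 at day 7, 0 to 1 from day 1 to day 3 and 0 to 0 from day 3 to day 7. The count at day 7 was 0 without healthy replicate 1, 2 or 3 or day 7 replicate 2. Those fits called 0.726%, 0.949%, 0.995% and 0.893% of all genes, against 3.18% with all samples. Over all genes, apart from the fits that left out a sample, calls ranged from 594 to 4308 at day 1 (1080 in the main model). They ranged from 1108 to 7265 at day 3 (1915) and 435 to 7047 at day 7 (846). From day 1 to day 3 the range was 189 to 3344 (676) and from day 3 to day 7 it was 1 to 6002 (472). Leaving out each sample gave 946 to 3314 calls over all genes at day 3 and 193 to 1509 at day 7. From day 3 to day 7 it gave 26 to 1652. The causes were not tested.

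Signs turned 28 times for single genes, in each case in a comparison in which that gene was not called. With limma-voom, day 3 against healthy gave -0.023 for Lama5, -0.20 for Nid1, -0.041 for Nid2 and -0.33 for Agrn, and day 7 against day 3 gave 0.43 for Lamb2, 0.21 for Lamc1 and 0.54 for Nid1. With library size only, day 3 against day 1 gave 0.0098 for Lamc1 and 0.0034 for Nid1. For day 7 against day 3, Nid1 was 0.000960 without a filter, 0.064 with at least 10 counts and 0.023 with the replicate block. Leaving out each sample, Lama5 ran from -0.14 to 0.40 and Agrn from -0.28 to 0.47 at day 3 against healthy, both negative without day 3 replicate 4. For day 3 against day 1, Lamc1 then ran from -0.57 to 0.046 and Nid1 from -0.47 to 0.058. For day 7 against day 3, Lama2 ran from -0.34 to 1.28, Lamb1 from -0.12 to 0.94 and Nid2 from -0.24 to 1.18, all lowest without day 7 replicate 2, while Lamb2 ran from -0.27 to 0.44, Lamc1 from -0.55 to 0.036 and Nid1 from -0.18 to 0.31. With 10 counts added the log2 ratio of Lamb2 to Lamb1 at day 1 was -0.023 against 0.040, and that of Agrn to Hspg2 at day 1 ran from -0.44 to -0.15 when a sample was left out. Of the 54 calls against healthy in the other lists, tried after the data were seen, 36 stood in every setting, 20 also without any single sample, and 0 changed sign.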

Other observations

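Some further patterns are given as descriptions over the 14 samples, which share 4 groups. Among all genes tested, those whose log2 CPM followed Lama2 most closely were Emp2 (Pearson r = 0.990), Foxf1 (0.989) and Mylk (0.985), and for Lamb1 they were Gdf2 (0.990), the stellate cell marker Pdgfrb (0.985) and Adamts2 (0.982). Lama2 and Lamb1 followed each other with r = 0.965, while Lama2 and Lama4 gave 0.337. Lama4 was followed most closely by Dhx57 (0.962), Lama5 by Dysf (0.954), Lamb2 by Micall2 (0.943) and Lamc1 by Myh9 (0.963), with the collagen IV chain Col4a2 close behind (0.932). Nid2 was followed most closely by Eln, the gene of elastin (0.944), Nid1 by Eif4g1 (0.952), Hspg2 by Phldb1 (0.925) and Agrn by Hectd4 (0.943).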
